A study of Mus musculus and Acomys cahirinus with 16 samples.

Results

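Cholesterol, fatty acids, sebum lipids and barrier ceramides are made in skin by enzymes whose 40 genes are described here. The genes were taken by name, and all 40 were found both in the mouse table of 56980 genes and in the spiny mouse table of 19818 genes. They fall into 14 genes of cholesterol synthesis, 3 of sterol regulation, 9 of fatty acid synthesis, elongation and desaturation, 6 of sebum lipids and 8 of barrier ceramides. Polyadenylated RNA of whole skin was sequenced from the laboratory mouse (Mus musculus) and the African spiny mouse (Acomys cahirinus), a rodent known for regrowing skin after wounds. The 16 samples form 4 groups of 4, untreated and DMBA/TPA-treated skin of either species. DMBA damages DNA and starts skin tumours, and the phorbol ester TPA promotes them by driving epidermal growth. Strain, age, sex, dose, treatment length and whether treated skin held tumours are not given in the labels used here, and the untreated samples are not said to have received the solvent. Nothing in the labels says that samples of a group came from separate animals, so the p-values measure the spread between these samples, which may be technical. The design text of the series speaks of irradiated fibroblasts, and the sample labels were followed instead.

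Skin makes lipids in several places. Keratinocytes of the upper epidermis build ceramides with very long chains, which together with cholesterol and free fatty acids seal the barrier against water loss. Sebaceous glands make wax esters, triglycerides and sterol esters and release them as sebum onto hair. The sterol pathway is steered by the transcription factor SREBP2 (gene Srebf2), which is released when sterols are scarce, while SREBP1 (Srebf1) favours the fatty acid genes and INSIG1 (Insig1) holds both factors back when sterols are plentiful.

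Since SREBP factors act together with the CCAAT-binding factor NF-Y, the 250 bases before the start of the Ensembl canonical transcript were read from the GRCm39 mouse genome with GENCODE M39 for every protein-coding gene. Both strands were searched for the sterol response element letters TCACNCCAC and for CCAAT. The first motif stood in 1.117% of 21757 promoters and in 3 of the 40 (Hmgcs1, Acaca and Fasn). CCAAT stood in 36.47% of all promoters and in 23 of the 40, with 10 of 14 among the cholesterol genes, 2 of 3 regulators, 4 of 9 fatty acid genes, 3 of 6 sebum genes and 4 of 8 ceramide genes. A match is a string of letters and no shown binding site, and 5-letter strings are common. Only exact letters were searched, so a window without a match may still hold a variant of the element. Some windows held annotated exon: all 250 bases for Fasn, Fdft1, Idi1, Pnpla1 and Dhcr7, and 67 bases for Hmgcs1, among others. Printed 5′ to 3′ in the direction of the gene are the windows of 5 genes, picked among those whose window holds no annotated exon. Capitals mark either motif on either strand (a minus-strand CCAAT reads ATTGG). They are Sqle (chr15:59186632-59186881, plus strand), Acaca (chr11:84063698-84063947, plus strand), Fads2 (chr19:10079204-10079453, minus strand), Fads3 (chr19:10018582-10018831, plus strand) and Cers3 (chr7:66413667-66413916, plus strand).
Sqle: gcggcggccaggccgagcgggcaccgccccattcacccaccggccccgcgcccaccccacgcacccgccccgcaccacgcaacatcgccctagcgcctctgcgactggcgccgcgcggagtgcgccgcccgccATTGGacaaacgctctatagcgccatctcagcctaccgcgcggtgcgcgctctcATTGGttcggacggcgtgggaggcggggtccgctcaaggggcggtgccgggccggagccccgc
Acaca: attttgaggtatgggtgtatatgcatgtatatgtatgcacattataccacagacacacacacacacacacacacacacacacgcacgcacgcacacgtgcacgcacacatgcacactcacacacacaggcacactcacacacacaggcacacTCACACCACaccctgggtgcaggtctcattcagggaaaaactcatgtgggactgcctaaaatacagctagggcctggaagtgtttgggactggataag
Fads2: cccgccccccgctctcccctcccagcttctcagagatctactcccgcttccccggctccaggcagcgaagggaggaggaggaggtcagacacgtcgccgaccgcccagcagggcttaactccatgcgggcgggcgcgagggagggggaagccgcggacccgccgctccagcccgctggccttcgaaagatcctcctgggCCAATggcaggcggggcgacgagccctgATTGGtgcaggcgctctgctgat
Fads3: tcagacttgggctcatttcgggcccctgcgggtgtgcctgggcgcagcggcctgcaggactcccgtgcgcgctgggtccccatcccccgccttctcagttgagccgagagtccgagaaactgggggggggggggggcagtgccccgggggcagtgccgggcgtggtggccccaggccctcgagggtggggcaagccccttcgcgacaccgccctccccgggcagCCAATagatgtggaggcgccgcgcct
Cers3: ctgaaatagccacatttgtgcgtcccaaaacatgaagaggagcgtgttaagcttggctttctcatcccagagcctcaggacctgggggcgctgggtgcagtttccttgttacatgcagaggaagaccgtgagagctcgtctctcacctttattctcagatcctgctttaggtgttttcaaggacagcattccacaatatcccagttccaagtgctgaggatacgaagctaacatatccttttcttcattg
Sqle carried CCAAT at 117 and 63 bases before the start, Fads2 at 51 and 23, and Fads3 at 26. Acaca carried the sterol response element letters at 98 bases before the start, inside a run of CA repeats, and Cers3 carried neither motif. Acaca is printed for its motif and not for its response, which was not called in mouse. Its window lies inside the annotated gene, which begins at position 84020498. The Cers3 window also lies inside its annotated gene, which begins at position 66393252. Sequence before starts further upstream was not searched for either gene.

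Mouse libraries held 19608787 to 30198281 counts and spiny mouse libraries 21143918 to 30561256, so that 3 counts correspond to at most 0.158 CPM, the usual depth-scaled count, here with TMM factors. All 40 genes passed the filter on low counts in both species. Treatment moved much of the transcriptome. By edgeR's quasi-likelihood test at an adjusted p under 0.05, 61.2% of 19740 mouse genes passed (25.9% rose with treatment and 35.3% fell) and 55.1% of 14833 spiny mouse genes (28.2% rose and 26.9% fell). Untreated mouse replicate 2 stood apart, with a summed 2721 CPM over 12 markers of the growing (anagen) hair follicle against 18.2 to 50.1 in the other untreated mouse samples and 23241 to 25510 in treated ones. In spiny mouse the order was the other way, with 11302, 12254, 1211 and 3685 CPM over 11 of these markers in untreated replicates 1 to 4 and 261, 218, 3579 and 1414 in treated ones. Untreated mouse replicate 1 held 681 CPM of 10 liver markers, against at most 7.52 in the other mouse samples. Markers of granular keratinocytes, basal keratinocytes and sebaceous glands were present in all 16 samples, as the label skin asks. Muscle markers fell in both species (10 of 10 in mouse, 9 of 9 tested in spiny mouse) and proliferation markers rose (12 of 12 and 11 of 11). In whole skin, fewer cells of a type and less RNA per cell cannot be told apart.

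Across the 40 genes the species moved in different directions. In mouse 20 were higher, 3 lower and 17 not called after treatment, with a median log2 fold change of 0.55 against -0.15 over all genes tested. In spiny mouse 4 were higher, 18 lower and 18 not called, with a median of -0.29 against -0.01. Over all genes tested 25.9% were higher and 35.3% lower in mouse, and 28.2% and 26.9% in spiny mouse. Members were called about as often as all genes: 23 of 40 in mouse (all genes 61.2%) and 22 of 40 in spiny mouse (all genes 55.1%). The same shares stand behind the counts of each list below. The difference between the species' responses was tested as an interaction (spiny mouse minus mouse, so that a negative value means a smaller rise or a larger fall in spiny mouse). It was called for 24 of the 40, of which 22 were negative and 2 positive, where 46.1% of 13656 shared genes were called (24.7% negative, 21.4% positive). Of the 40, 7 rose in mouse and fell in spiny mouse, 3 rose in both and 1 fell in both. The shares of all shared genes with such joint calls were not counted, so joint counts here and below have no background. Without untreated mouse replicate 2, 23 were higher and 6 lower in mouse.

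**Figure D1:**
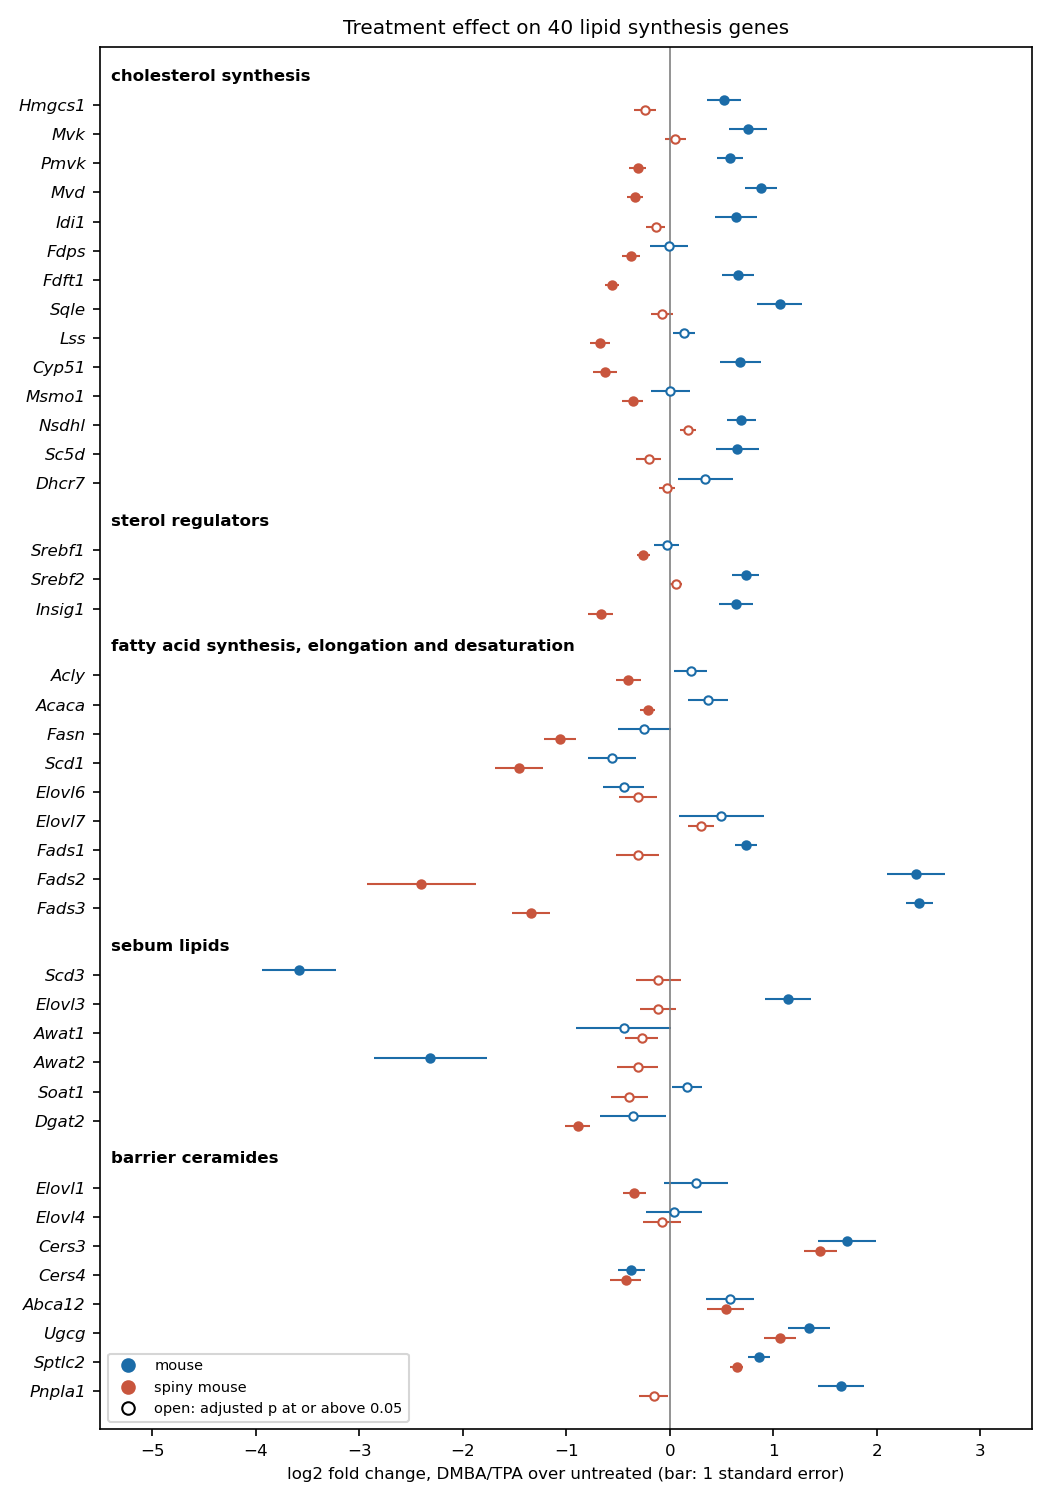
Log2 fold change of treated over untreated skin for the 40 genes by class, in mouse (blue) and spiny mouse (red); bars are 1 standard error and open circles did not pass an adjusted p of 0.05 by edgeR's quasi-likelihood test. Cholesterol genes lie right of 0 or near it in mouse and left of 0 or near it in spiny mouse, while Cers3, Ugcg and Sptlc2 lie right of 0 in both.

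Transcripts of most cholesterol pathway genes were raised in treated mouse skin, and none was called higher in treated spiny mouse skin. In mouse 10 of 14 genes were higher and none lower (median log2 fold change 0.65). In spiny mouse 7 of 14 were lower and none higher (median -0.27). The interaction was negative for 11 of 14, and 4 genes (Pmvk, Mvd, Fdft1 and Cyp51) rose in mouse and fell in spiny mouse. Over the processing alternatives tried, the mouse count of higher genes ran from 7 to 11, the spiny mouse count of lower genes from 7 to 9 and the count of negative interactions from 10 to 12. Anagen hair follicle markers also differed in direction: 11 of 12 were higher in mouse, and 3 of 11 were lower and none higher in spiny mouse. Among untreated mouse samples, replicate 2 had the most of these markers (2721 CPM) and the lowest summed cholesterol gene level (950.2 CPM, others 1432 to 1583). Untreated spiny mouse replicates 1 to 4 had 11302, 12254, 1211 and 3685 CPM of markers. Their cholesterol gene sums were 2166, 2186, 2494 and 2301 CPM. The part of hair follicle or keratinocyte content in the cholesterol gene values was not tested.

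At the head of the pathway, Hmgcs1 condenses acetyl units into HMG-CoA, the substrate of the mevalonate branch. Its mouse levels were 306, 196, 273 and 285 CPM in untreated replicates 1 to 4 and 441, 378, 368 and 336 CPM in treated ones, a log2 fold change of 0.52 (SE 0.17, adjusted p 0.0216). In spiny mouse they were 475, 437, 527 and 469 and 453, 443, 374 and 347 CPM, a log2 fold change of -0.24 (SE 0.11, adjusted p 0.0828). Every treated mouse sample was above every untreated one, while the spiny mouse groups overlapped, and the interaction was -0.76 (SE 0.20, adjusted p 0.0055). The mouse call was lost with upper-quartile factors (0.33, adjusted p 0.0675), with library size alone (0.29, adjusted p 0.0936) and without treated mouse replicate 1 (0.47, adjusted p 0.0564).

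The 14 genes do not cover every step of the pathway. Mvk, Pmvk, Mvd and Idi1 act further on, between mevalonate and the isoprene units. Mvk and Pmvk, the mevalonate and phosphomevalonate kinases, rose in mouse by log2 fold changes of 0.75 (SE 0.18, adjusted p 0.00603) and 0.58 (SE 0.12, adjusted p 0.00327). In spiny mouse Mvk had 0.05 (SE 0.10, adjusted p 0.685) and Pmvk fell, with -0.31 (SE 0.08, adjusted p 0.0113). Mvd, which decarboxylates mevalonate diphosphate, had 37.01, 25.6, 39.3 and 31.7 CPM in untreated and 70.7, 58.02, 66.8 and 50.8 CPM in treated mouse skin, and 42.3, 48.5, 50.03 and 51.3 against 40.9, 38.4, 36.8 and 36.2 CPM in spiny mouse. Neither pair of groups overlapped, and the directions were opposite: 0.88 (SE 0.16, adjusted p 0.00124) in mouse and -0.33 (SE 0.08, adjusted p 0.00598) in spiny mouse, an interaction of -1.22 (SE 0.18, adjusted p 7.44e-05). Idi1, the isomerase that follows, had 0.64 (SE 0.21, adjusted p 0.0225) in mouse and -0.13 (SE 0.09, adjusted p 0.233) in spiny mouse. Its mouse call was lost with upper-quartile factors (0.45, adjusted p 0.0592), with library size alone (0.41, adjusted p 0.078), without untreated replicate 4 (0.60, adjusted p 0.0557) and without treated replicate 1 (0.62, adjusted p 0.0534). Idi1-ps1 and Idi1-ps2 match 26.41% and 26.29% of the mouse Idi1 transcript at 100% and 97.65% identity.

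Fdps makes farnesyl diphosphate, the last intermediate shared with protein prenylation. It stood at 6.88 ± 1.67 and 6.84 ± 0.657 CPM in untreated and treated mouse skin (SD, n = 4 each) and at 179 ± 21.6 and 138 ± 5.39 CPM in spiny mouse, where it fell by 0.38 on the log2 scale (adjusted p 0.00488). The mouse value is uncertain, because 4 other loci match its transcript at 96.1% to 98.9% identity over 46.3% to 81.6% of its length. The counting command has no option that keeps fragments with several mapping places. Mouse Fdps also shares 26.7% of its exonic bases with another annotated gene on the same strand, and no option keeps fragments over several genes. Fdft1, squalene synthase, is the first enzyme committed to sterols. Its levels were 94.6, 60.4, 81.4 and 95.3 CPM in untreated and 146, 118, 133 and 126 CPM in treated mouse skin, and 144, 141, 158 and 142 against 109, 101, 94.02 and 93.03 CPM in spiny mouse. All treated mouse samples were above the untreated ones and all treated spiny mouse samples below them, with log2 fold changes of 0.66 (SE 0.15, adjusted p 0.00501) and -0.56 (SE 0.07, adjusted p 0.000215) and an interaction of -1.21 (SE 0.17, adjusted p 5.03e-05). Fdft1 shares 18.8% of its exonic bases in mouse and 9.71% in spiny mouse with Ctsb on the other strand, and the counting did not use strand. Another locus, Gm6781, matches 35.96% of the mouse Fdft1 transcript at 97.44% identity.

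Sqle, the oxygen-requiring squalene epoxidase, had the largest rise among the 14 genes in mouse. Its levels were 149.8, 79.99, 138 and 157 CPM in untreated and 329, 269, 259.9 and 238 CPM in treated mouse skin, and the lowest of the 8 was untreated replicate 2. The log2 fold change was 1.06 (SE 0.21, adjusted p 0.00237). In spiny mouse Sqle had 176, 162, 182 and 177 and 179, 186, 168 and 129 CPM, with overlapping groups, a log2 fold change of -0.07 (SE 0.11, adjusted p 0.589) and an interaction of -1.13 (SE 0.25, adjusted p 0.00166). Lss, which folds the epoxide into lanosterol, was not called in mouse and fell in spiny mouse, with 0.14 (SE 0.11, adjusted p 0.283) in mouse and -0.67 (SE 0.09, adjusted p 0.000357) in spiny mouse. In the spiny mouse annotation Lss shares 55.2% of its exonic bases with Spatc1l, so its level there is uncertain.

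Later steps trim lanosterol to cholesterol. Cyp51, the lanosterol demethylase, had 207, 112, 195 and 178 CPM in untreated and 326, 274, 266 and 241 CPM in treated mouse skin, and 523, 559, 717 and 677 against 429.8, 411, 399 and 363 CPM in spiny mouse. It rose in mouse by 0.68 (SE 0.20, adjusted p 0.0143) and fell in spiny mouse with -0.63 (SE 0.12, adjusted p 0.0016), and its interaction of -1.31 (SE 0.24, adjusted p 0.000409) was the largest in size among the 14. Msmo1, a methyl sterol oxidase of later demethylation steps, had 0.00 (SE 0.19, adjusted p 0.983) in mouse and -0.36 (SE 0.10, adjusted p 0.014) in spiny mouse. Nsdhl, a sterol dehydrogenase, rose in mouse (0.69 (SE 0.14, adjusted p 0.0023)) and had 0.18 (SE 0.08, adjusted p 0.0739) in spiny mouse. Sc5d, a sterol desaturase, had 0.65 (SE 0.21, adjusted p 0.0217) and -0.20 (SE 0.12, adjusted p 0.178), and its mouse call was lost with library size alone (0.43, adjusted p 0.064) and without treated replicate 1 (0.64, adjusted p 0.0516). Dhcr7, which performs the final reduction in one branch, was called in neither species (0.34 (SE 0.27, adjusted p 0.284) and -0.03 (SE 0.08, adjusted p 0.789)). The interaction of Nsdhl, -0.51 (SE 0.16, adjusted p 0.016), was lost with library size alone (-0.30, adjusted p 0.0833).

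Among the regulators, Srebf2 and its brake Insig1 rose in mouse. Srebf2 had 206, 184, 186 and 239 CPM in untreated and 377, 316, 334 and 330.4 CPM in treated mouse skin, a log2 fold change of 0.74 (SE 0.13, adjusted p 0.00128). In spiny mouse it stayed between 213 and 242 CPM in all 8 samples, with 0.06 (SE 0.06, adjusted p 0.424) and an interaction of -0.68 (SE 0.13, adjusted p 0.000646). Insig1, itself a target of the SREBP factors, had 106, 66.1, 107 and 113 CPM in untreated and 166, 151, 148 and 147 CPM in treated mouse skin, and 235, 236, 223 and 190.2 against 114, 128, 158 and 156 CPM in spiny mouse. It rose in mouse (0.64 (SE 0.16, adjusted p 0.00794)) and fell in spiny mouse (-0.67 (SE 0.12, adjusted p 0.00134)) without overlap in either, an interaction of -1.31 (SE 0.21, adjusted p 0.000157). Srebf1 had -0.03 (SE 0.12, adjusted p 0.836) in mouse and fell in spiny mouse, with -0.25 (SE 0.07, adjusted p 0.00993).

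**Figure D2:**
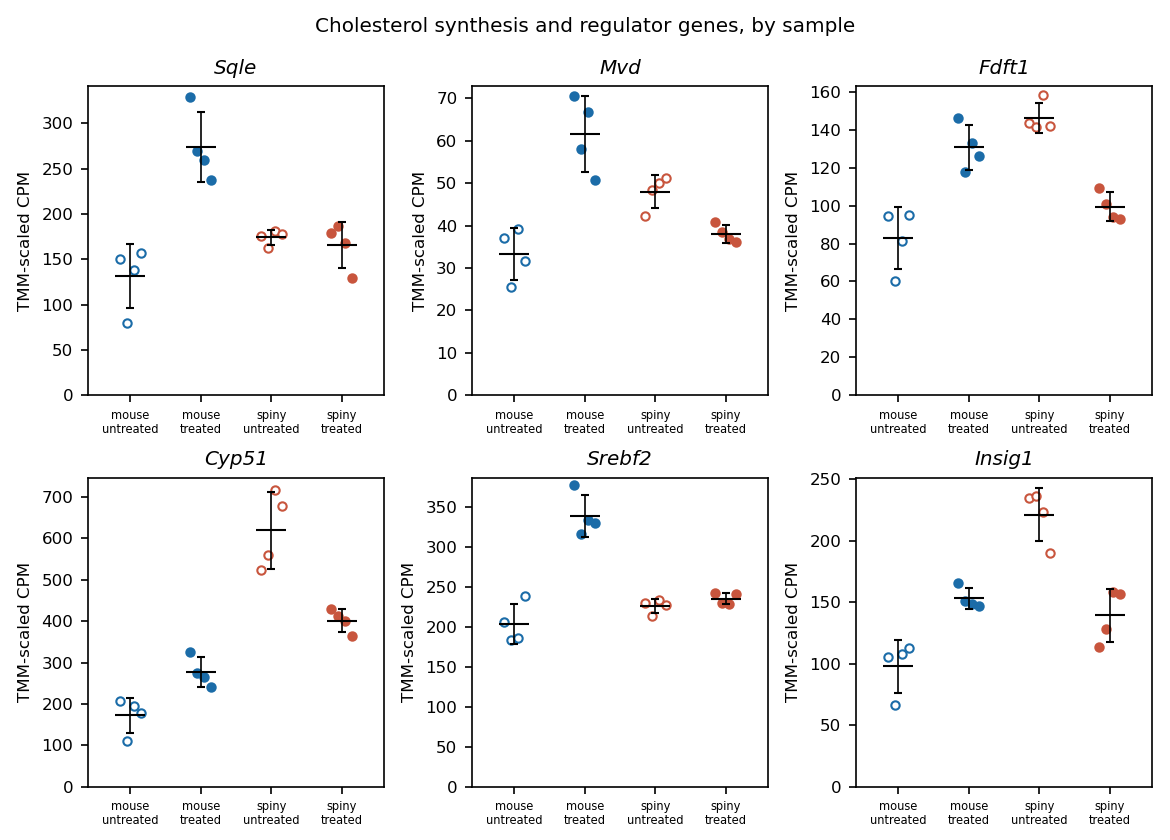
TMM-scaled CPM of 6 sterol genes in each sample (points, open for untreated and filled for treated, blue for mouse and red for spiny mouse) with mean and SD of 4 samples in black; each axis starts at 0. In mouse the treated points lie above the untreated ones for all 6 genes, and in spiny mouse they lie below them for Mvd, Fdft1, Cyp51 and Insig1.

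Among 17 other genes of sterol synthesis, sensing and export, 8 were higher and 2 lower in mouse. In spiny mouse 3 were higher and 7 lower of 16 tested. The largest rise was that of Ebp, the sterol isomerase, in both species: 30.5 ± 9.50 to 64.4 ± 5.57 CPM in mouse (1.08 (SE 0.22, adjusted p 0.0028)) and 82.02 ± 2.65 to 114 ± 8.01 CPM in spiny mouse (0.47 (SE 0.06, adjusted p 0.000278)). The largest fall in mouse was that of Nr1h3, the sterol-sensing receptor LXR alpha (-1.06 (SE 0.19, adjusted p 0.00134)). In spiny mouse it was that of Tm7sf2, a sterol reductase, which went from 18.7 ± 3.69 to 6.50 ± 1.17 CPM (-1.52 (SE 0.17, adjusted p 0.000121)). Ebp thus rose in spiny mouse while 7 of the 14 cholesterol genes fell there.

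Of the 9 fatty acid genes, 6 fell in spiny mouse, and in mouse only the 3 desaturases of the Fads family were called, all higher. Over all genes tested 26.9% were lower in spiny mouse, and in mouse 25.9% were higher and 35.3% lower. In mouse the median log2 fold change was 0.37, and without untreated mouse replicate 2, with upper-quartile factors or with library size alone 2 genes were also lower. In spiny mouse none was higher, with a median of -0.40. Of 10 adipocyte markers, 6 were lower and none higher in spiny mouse (median log2 fold change -0.60). Their sum there ran from 2118 to 2371 CPM in untreated and from 1121 to 1517 CPM in treated skin, without overlap. In mouse 6 of 10 were also lower (median -1.41), with sums of 578 to 2404 and 462 to 897 CPM that overlap. The part of fat content in the fatty acid gene values was not tested. The interaction was negative for 7 of 9. That count was 3 when scaled by upper-quartile factors or by library size alone, and also without untreated spiny mouse replicate 3. It was 4 with the replicate number as a block and without untreated spiny mouse replicate 4, treated spiny mouse replicate 2 or treated mouse replicate 1.

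Acly and Acaca supply acetyl-CoA and malonyl-CoA. Acly had 0.20 (SE 0.16, adjusted p 0.297) in mouse and -0.40 (SE 0.12, adjusted p 0.0196) in spiny mouse, and Acaca had 0.37 (SE 0.19, adjusted p 0.116) and -0.21 (SE 0.08, adjusted p 0.036). The spiny mouse fall of Acaca was lost without any 1 of untreated replicates 1, 3 and 4 or of the 4 treated replicates (adjusted p 0.0527 to 0.108), and that of Acly without untreated or treated replicate 4 (adjusted p 0.0519 to 0.0522). A pseudogene, Gm5182, matches 64.3% of the mouse Acaca transcript at 99.2% identity. Acaca is one of the 3 genes with the sterol response element letters in the window printed above.

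Fasn, the fatty acid synthase, had 686, 626, 584 and 1217 CPM in untreated and 839.7, 605, 643 and 541 CPM in treated mouse skin, where untreated replicate 4 was far above the other 7. The mouse log2 fold change was -0.24 (SE 0.26, adjusted p 0.434). In spiny mouse it had 2069.8, 1937, 2766 and 2686 CPM in untreated and 1123, 956, 1121 and 1328 CPM in treated skin, a log2 fold change of -1.06 (SE 0.15, adjusted p 0.000419). The spiny mouse groups did not overlap. Scd1, which puts the first double bond into saturated chains, had 3212, 2039, 2609 and 3148 CPM in untreated and 2328, 1994, 1783 and 1367 CPM in treated mouse skin, with -0.56 (SE 0.23, adjusted p 0.0582). In spiny mouse its levels were 515, 523, 833 and 588 and 275, 197, 148 and 278 CPM, a fall without overlap of -1.45 (SE 0.23, adjusted p 0.000712). The mouse value of Scd1 passed the threshold as a fall without untreated replicate 2 (-0.59, adjusted p 0.0119). It also passed as a fall with upper-quartile factors, library size alone, the DESeq2 test, a robust fit and limma-voom with sample weights (-0.79 to -0.46, adjusted p 0.00124 to 0.0463).

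The interactions of these 4 genes lay near the threshold. They were -0.60 (SE 0.20, adjusted p 0.0233) for Acly, -0.59 (SE 0.21, adjusted p 0.0334) for Acaca, -0.82 (SE 0.32, adjusted p 0.0444) for Fasn and -0.89 (SE 0.33, adjusted p 0.0372) for Scd1. All 4 were lost under library size alone and under upper-quartile factors. Leaving out 1 library raised the adjusted p to 0.0532 for Acly (untreated spiny mouse replicate 3), to 0.0538 to 0.0649 for Acaca, to 0.0561 to 0.0903 for Fasn and to 0.0507 to 0.0871 for Scd1. Losses came for Acaca without untreated mouse replicate 1, treated mouse replicate 1, untreated spiny mouse replicates 3 or 4 and treated spiny mouse replicates 2 or 4. For Fasn they came without untreated mouse replicates 1 or 3, treated mouse replicates 1 or 3, untreated spiny mouse replicates 3 or 4 and treated spiny mouse replicates 1, 2 or 3. For Scd1 they came without treated mouse replicate 1, untreated spiny mouse replicates 3 or 4 and treated spiny mouse replicates 2 or 3.

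Elovl6 and Elovl7 lengthen fatty acids. Elovl6 had -0.45 (SE 0.20, adjusted p 0.0767) in mouse and -0.31 (SE 0.19, adjusted p 0.184) in spiny mouse, and Elovl7 had 0.50 (SE 0.41, adjusted p 0.314) and 0.30 (SE 0.12, adjusted p 0.0633). Neither was called in either species. Elovl6 passed as a fall in mouse with upper-quartile factors, library size alone and limma-voom with sample weights (adjusted p 0.00966 to 0.0136). Without untreated mouse replicate 2, Elovl6 passed as a fall (-0.44, adjusted p 0.0332) and Elovl7 as a rise (0.27, adjusted p 0.0375). That sample held 39.95 CPM of Elovl7, against 174 to 220.1 in the other untreated mouse samples.

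The Fads genes, which lie together on mouse chromosome 19 and on 1 spiny mouse scaffold, include the pair with the largest interactions in size of the 40, Fads2 and Fads3. Fads2 encodes the desaturase that opens the path to long polyunsaturated fatty acids and, in human sebum, makes sapienic acid. It had 11.6, 20.7, 7.22 and 9.52 CPM in untreated and 60.96, 62.1, 63.8 and 67.4 CPM in treated mouse skin, a log2 fold change of 2.38 (SE 0.28, adjusted p 0.000141). Spiny mouse samples held 45.9, 51.4, 7.999 and 20.6 and 4.87, 3.93, 7.90 and 7.17 CPM, a log2 fold change of -2.40 (SE 0.53, adjusted p 0.00418). Groups did not overlap in either species, though untreated spiny mouse replicate 3 was only just above the highest treated sample, and the interaction was -4.78 (SE 0.64, adjusted p 3.35e-05). Fads3, a relative that desaturates sphingoid bases, had 29.1, 34.4, 26.7 and 34.2 CPM in untreated and 151, 163, 157 and 192 CPM in treated mouse skin. Its spiny mouse levels were 10.4, 16.2, 9.19 and 12.9 and 4.64, 5.15, 4.25 and 5.16 CPM. It rose in mouse by 2.41 (SE 0.13, adjusted p 4.12e-06) and fell in spiny mouse with -1.34 (SE 0.18, adjusted p 0.000292), both without overlap, an interaction of -3.75 (SE 0.22, adjusted p 2.62e-08). Fads1, the desaturase of the following step, rose in mouse (0.73 (SE 0.11, adjusted p 0.000385)) and had -0.31 (SE 0.21, adjusted p 0.232) in spiny mouse, an interaction of -1.04 (SE 0.24, adjusted p 0.0028).

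**Figure D3:**
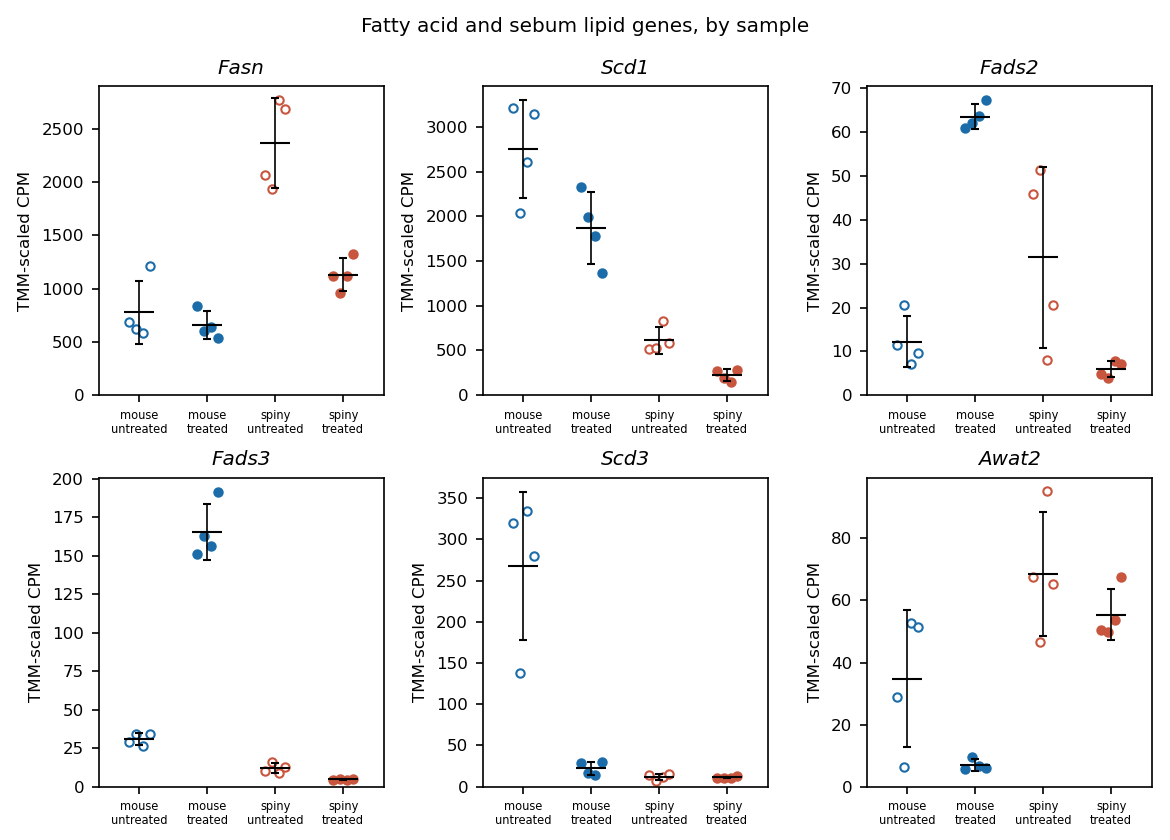
TMM-scaled CPM of 4 fatty acid genes and 2 sebum genes in each sample (points, open for untreated and filled for treated) with mean and SD of 4 samples in black; each axis starts at 0. Fads2 and Fads3 are higher in treated mouse skin and lower in treated spiny mouse skin, Fasn and Scd1 are lower in treated spiny mouse skin, and Scd3 and Awat2 have their highest mouse values in untreated skin.

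In spiny mouse, Fads2 kept the order of the hair follicle markers within each group. The 4 untreated spiny mouse samples had the same order in Fads2 (45.9, 51.4, 7.999 and 20.6 CPM) as in the summed anagen markers (11302, 12254, 1211 and 3685 CPM), and so did the 4 treated ones. Fads3 did not keep that order: treated replicate 3, with the most markers of the treated samples (3579 CPM), had the lowest Fads3 level, 4.25 CPM, and among untreated samples replicate 4 (3685 CPM of markers, 12.9 CPM of Fads3) was above replicate 1 (11302 and 10.4 CPM). In mouse the anagen-rich untreated replicate 2 had the highest untreated levels of Fads2 (20.7 CPM) and Fads3 (34.4 CPM). The order was not kept further: untreated mouse replicate 3 (50.1 CPM of markers, above replicates 1 and 4) had the lowest Fads2 level, 7.22 CPM. Treated mouse replicate 2 was above replicate 3 in markers (24936 and 23950 CPM) and below it in Fads2 (62.1 and 63.8 CPM). Of 12 anagen markers in mouse 11 were called higher and none lower, and of 11 in spiny mouse 3 were lower and none higher. The part of hair follicle content in the Fads2 and Fads3 values was not tested.

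**Figure D4:**
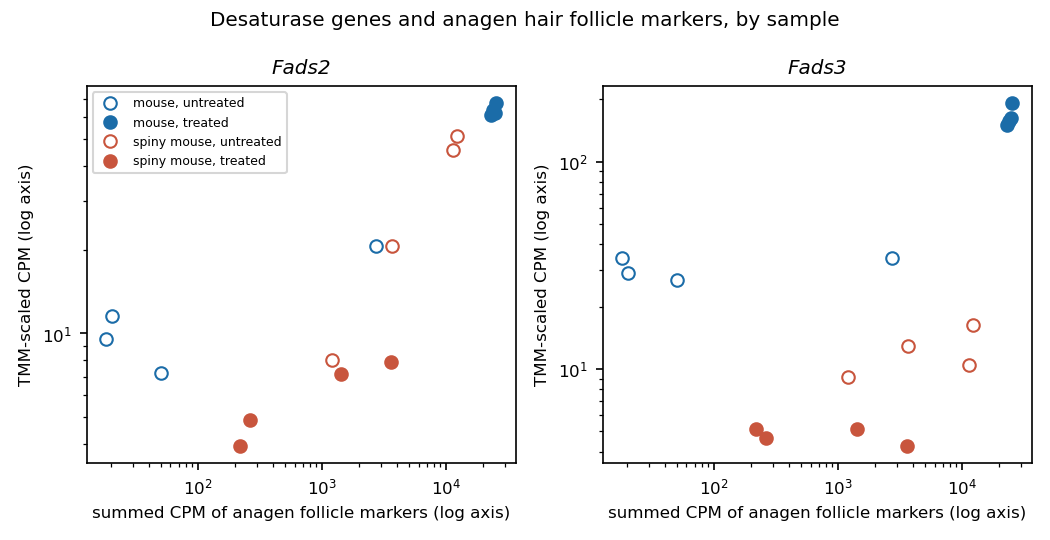
Fads2 and Fads3 (TMM-scaled CPM, log axis) against the summed CPM of anagen hair follicle markers (log axis, 12 genes in mouse and 11 in spiny mouse), 1 point per sample, open for untreated and filled for treated. The 4 treated mouse samples lie at the upper right of both panels, at 23241 to 25510 CPM of the markers, and the treated spiny mouse samples have the lowest Fads3 levels, at most 5.16 CPM.

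Of 17 other fatty acid genes, 16 were tested in each species. In mouse 2 were higher and 8 lower, and in spiny mouse 2 were higher and 9 lower. The largest mouse rise was that of Scd2, a second stearoyl-CoA desaturase, from 157 ± 28.2 to 597 ± 70.4 CPM (1.92 (SE 0.17, adjusted p 3.03e-05)). The largest fall in both species was that of Mlxipl, the sugar-responsive factor ChREBP, with -2.28 (SE 0.29, adjusted p 0.000215) in mouse and -1.65 (SE 0.21, adjusted p 0.000237) in spiny mouse. The largest spiny mouse rise was that of Hacd1, a dehydratase of chain elongation, with 0.46 (SE 0.14, adjusted p 0.0186).

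Among the 6 sebum genes, 1 was higher and 2 were lower in mouse (median log2 fold change -0.40). In spiny mouse 1 was lower and none higher (median -0.29). Over all genes tested 25.9% were higher and 35.3% lower in mouse, and 28.2% and 26.9% in spiny mouse. Without untreated mouse replicate 2, 4 were lower in mouse, and without untreated spiny mouse replicate 2, 4 were lower in spiny mouse (median -0.42). Scd3, the desaturase isoform of sebaceous glands, had 319, 137, 335 and 279 CPM in untreated and 28.7, 16.3, 14.3 and 30.1 CPM in treated mouse skin, a log2 fold change of -3.58 (SE 0.36, adjusted p 5.41e-05) and the largest fall among the 40. Levels in spiny mouse were 14.1, 7.06, 11.3 and 15.9 and 11.1, 11.1, 9.99 and 12.6 CPM with overlapping groups (-0.11 (SE 0.22, adjusted p 0.688)), and the interaction was 3.47 (SE 0.43, adjusted p 1.53e-05). Scd1 to Scd4 are close relatives, and how far their fragments were split in counting was not tested. Mouse transcripts of Scd1 and Scd3 matched no other Scd gene at 95% identity or more over at least 150 bases. Each matched Gm50323 over 214 bases. Shorter or less alike stretches, and spiny mouse transcripts, were not searched.

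Awat2 and Awat1 make wax esters. Awat2 had 28.8, 6.32, 52.6 and 51.5 CPM in untreated and 5.57, 9.67, 6.73 and 6.05 CPM in treated mouse skin, where untreated replicate 2 lay among the treated samples. The log2 fold change was -2.31 (SE 0.55, adjusted p 0.00535). In spiny mouse it had 67.5, 46.6, 95.1 and 65.4 and 50.5, 49.95, 53.7 and 67.5 CPM, with -0.31 (SE 0.19, adjusted p 0.201), and the interaction of 2.003 (SE 0.61, adjusted p 0.0134) was lost with the replicate number as a block (1.80, adjusted p 0.0702). Awat1 had -0.44 (SE 0.46, adjusted p 0.42) in mouse and -0.27 (SE 0.16, adjusted p 0.178) in spiny mouse. Without untreated mouse replicate 2, which held 12.1 CPM against 66.2 to 91.1 in the other untreated samples, Awat1 passed as a fall (-0.69, adjusted p 0.000172). Without untreated spiny mouse replicate 2, Awat1 (-0.39, adjusted p 0.0361) and Awat2 (-0.46, adjusted p 0.0389) passed as falls there too.

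Elovl3, an elongase of sebaceous glands and hair follicles, went the other way. It had 77.8, 38.99, 70.6 and 44.8 CPM in untreated and 145, 133, 125 and 109.8 CPM in treated mouse skin, a rise without overlap of 1.14 (SE 0.22, adjusted p 0.00195). Spiny mouse samples held 553, 436, 817 and 656 and 553, 523, 587 and 612 CPM, with -0.11 (SE 0.17, adjusted p 0.599) and an interaction of -1.26 (SE 0.30, adjusted p 0.00318). Dgat2, which completes triglycerides, had 669, 712, 656 and 741 CPM in untreated and 327, 468, 367 and 338 CPM in treated spiny mouse skin, a fall without overlap of -0.89 (SE 0.12, adjusted p 0.000298). In mouse Dgat2 had -0.36 (SE 0.32, adjusted p 0.351), and it passed as a fall without untreated replicate 2 (-0.53, adjusted p 0.00202). Soat1, which esterifies cholesterol, had 0.17 (SE 0.15, adjusted p 0.339) in mouse and -0.39 (SE 0.18, adjusted p 0.0883) in spiny mouse.

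Of 9 sebaceous gland markers, 4 were higher and 3 lower in mouse, and of 8 tested in spiny mouse 1 was higher and 3 were lower. Their summed level ran from 916 to 1900 CPM in untreated and from 3675 to 4713 in treated mouse skin, a sum carried by Fabp5 and Krt79. Adipocyte markers were lower for 6 of 10 in each species and higher for none. The part of gland or fat content in the sebum gene values was not tested. Of 12 other sebum and lipid droplet genes, 2 were higher and 4 lower of 11 tested in mouse, and 2 higher and 3 lower of 10 tested in spiny mouse. Fabp5, a fatty acid carrier of keratinocytes and also one of the sebaceous markers, had the largest mouse rise, from 347 ± 112 to 2566 ± 357 CPM (2.89 (SE 0.29, adjusted p 5.51e-05)). In spiny mouse the largest rise was that of Mogat2, an acyltransferase, at 2.26 (SE 0.20, adjusted p 4.01e-05). Plin5, a lipid droplet coat protein, had the largest fall in both among called genes at an average log2 CPM of at least 1, with -2.23 (SE 0.25, adjusted p 9.31e-05) and -0.95 (SE 0.20, adjusted p 0.00342). Below that level, Soat2, a second sterol esterifying enzyme, had -1.58 (SE 0.53, adjusted p 0.0292) in spiny mouse.

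The 4 barrier ceramide genes called in both species moved the same way in each. In mouse 4 of 8 were higher and 1 lower (median log2 fold change 0.72), and in spiny mouse 4 were higher and 2 lower (median 0.23). Over all genes tested 61.2% were called in mouse (25.9% higher, 35.3% lower) and 55.1% in spiny mouse (28.2% higher, 26.9% lower). Cers3, Ugcg and Sptlc2 rose in both, and Cers4 fell in both. How many of all shared genes moved the same way in both was not counted. The interaction was called for 1 of 8, Pnpla1. It was called for 3 (Pnpla1, Elovl1 and Sptlc2) without untreated mouse replicate 2. It was called for 2 (Pnpla1 and Sptlc2) without untreated mouse replicate 3 or treated mouse replicate 2, and with DESeq2 size factors, the DESeq2 test or no filter. A difference that misses the threshold does not show equal responses.

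Sptlc2 is a subunit of the enzyme that starts sphingolipid synthesis. Its levels were 60.7, 45.96, 59.97 and 54.8 CPM in untreated and 105, 96.1, 100.2 and 100.3 CPM in treated mouse skin, and 80.3, 75.2, 81.1 and 85.1 against 129, 124, 118 and 132 CPM in spiny mouse. It rose without overlap by 0.86 (SE 0.11, adjusted p 0.000175) in mouse and 0.65 (SE 0.06, adjusted p 4.67e-05) in spiny mouse. The interaction of -0.21 (SE 0.12, adjusted p 0.152) passed the threshold under 6 of 25 alternatives. Among them were leaving out untreated mouse replicate 2 (-0.23, adjusted p 0.0334) and the DESeq2 test (-0.32, adjusted p 0.0114). Cers3 joins very long acyl chains to the sphingoid base and is the ceramide synthase of the barrier. It had 70.6, 26.9, 61.8 and 71.2 CPM in untreated and 212, 196, 189 and 158 CPM in treated mouse skin, and 118, 93.05, 104 and 98.04 against 327, 342, 262 and 204 CPM in spiny mouse. Both rises were without overlap, at 1.71 (SE 0.28, adjusted p 0.000747) and 1.46 (SE 0.16, adjusted p 0.000101), with an interaction of -0.26 (SE 0.33, adjusted p 0.557). Ugcg adds glucose to ceramide for transport into lamellar granules. It had 125, 67.2, 121 and 131 CPM in untreated and 303, 297, 270.4 and 257 CPM in treated mouse skin, and 174, 129, 193 and 170.0 against 386, 415, 298 and 294 CPM in spiny mouse. Its rises were 1.34 (SE 0.20, adjusted p 0.000507) and 1.06 (SE 0.15, adjusted p 0.000427), with an interaction of -0.28 (SE 0.26, adjusted p 0.405).

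Pnpla1 transfers linoleate onto ceramide to form the acylceramides of the barrier. It had 36.1, 18.1, 23.1 and 37.4 CPM in untreated and 98.3, 88.00, 89.4 and 85.5 CPM in treated mouse skin, a rise without overlap of 1.66 (SE 0.22, adjusted p 0.000252). Levels in spiny mouse were 70.1, 57.9, 56.98 and 52.4 and 52.6, 66.2, 52.4 and 41.7 CPM, with overlapping groups, -0.16 (SE 0.14, adjusted p 0.364) and an interaction of -1.81 (SE 0.27, adjusted p 8.91e-05). In mouse 13.3% of its exonic bases overlap Pnpla1os on the other strand. Abca12, the transporter that loads lipid into lamellar granules, had 349, 199, 309 and 421 CPM in untreated and 594, 453, 465 and 399.7 CPM in treated mouse skin (0.58 (SE 0.23, adjusted p 0.0516)), and 466, 306, 561 and 431 against 733, 701, 562 and 569.7 CPM in spiny mouse (0.54 (SE 0.18, adjusted p 0.0274)). Its mouse value passed as a rise without untreated replicate 2 (0.50, adjusted p 0.0107), untreated replicate 4 (0.75, adjusted p 0.0244) or treated replicate 2 (0.71, adjusted p 0.0448). Its spiny mouse call was lost without untreated replicates 1 or 4 or treated replicates 1 or 2 (adjusted p 0.0529 to 0.0708) and with the replicate number as a block (adjusted p 0.0545).

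Elovl4 and Elovl1 make the very long chains. Elovl4 had 1445 ± 493 and 1488 ± 163 CPM in untreated and treated mouse skin and 2972 ± 859.8 and 2816 ± 77.1 CPM in spiny mouse (SD, n = 4 each), and was called in neither (0.04 (SE 0.27, adjusted p 0.9) and -0.08 (SE 0.18, adjusted p 0.74)). Elovl1 had 0.25 (SE 0.31, adjusted p 0.498) in mouse and -0.34 (SE 0.11, adjusted p 0.0268) in spiny mouse. Cers4, a ceramide synthase of sebaceous gland and hair follicle, fell in both species, with -0.37 (SE 0.13, adjusted p 0.0335) in mouse and -0.42 (SE 0.15, adjusted p 0.0382) in spiny mouse and overlapping groups in both. These falls were close to the threshold. Cers4 was lost in mouse without untreated replicates 1, 2 or 3 or treated replicates 2, 3 or 4 (adjusted p 0.0594 to 0.135) and with DESeq2 size factors, the DESeq2 test or no filter (adjusted p 0.092 to 0.251). In spiny mouse Cers4 was lost without untreated replicates 3 or 4 or any 1 treated replicate (adjusted p 0.0542 to 0.0919). Elovl1 was lost there without untreated replicates 1, 3 or 4 or treated replicates 3 or 4 (adjusted p 0.0549 to 0.0746) and with the replicate number as a block (adjusted p 0.0665).

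**Figure D5:**
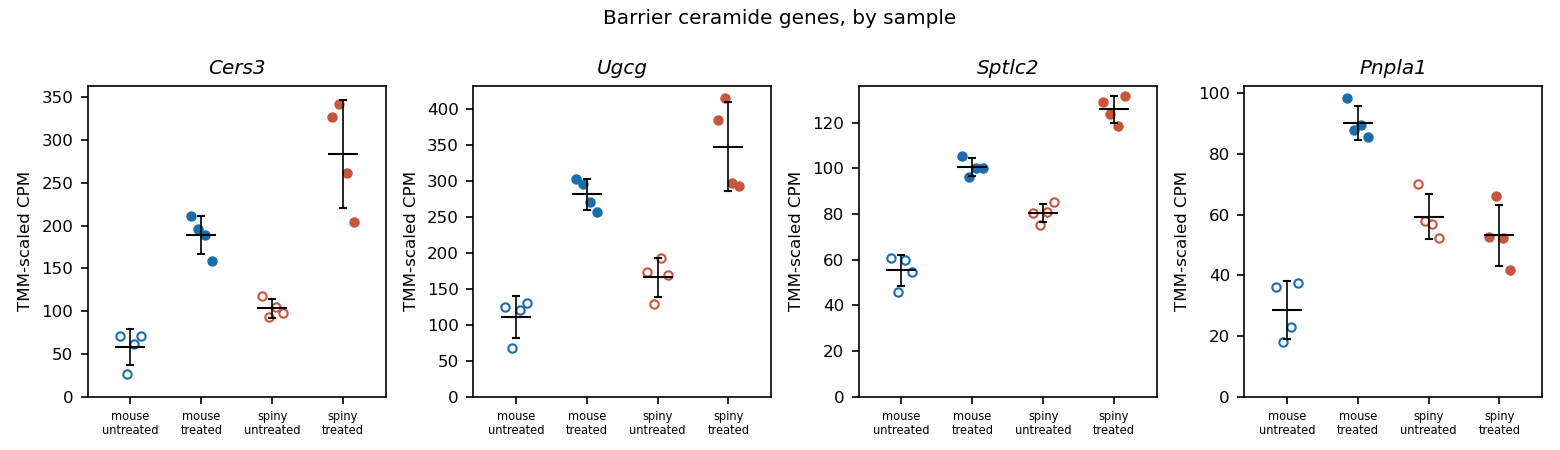
TMM-scaled CPM of 4 barrier ceramide genes in each sample (points, open for untreated and filled for treated, blue for mouse and red for spiny mouse) with mean and SD of 4 samples in black; each axis starts at 0. Treated points lie above untreated ones in both species for Cers3, Ugcg and Sptlc2, and in mouse alone for Pnpla1.

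Of 17 other ceramide and lipid envelope genes, 8 were higher and 5 lower in mouse. In spiny mouse 4 were higher and 6 lower of 16 tested. Degs2, which makes phytoceramides, had the largest mouse rise, from 4.13 ± 1.53 to 36.1 ± 2.21 CPM (3.13 (SE 0.27, adjusted p 2.65e-05)). Sdr9c7, a dehydrogenase needed to bind ceramide to the cornified envelope, had the largest spiny mouse rise, from 114 ± 21.2 to 213 ± 44.5 CPM (0.91 (SE 0.17, adjusted p 0.00184)). The largest mouse fall was that of Cers5 (-1.76 (SE 0.41, adjusted p 0.00524)) and the largest spiny mouse fall that of Sptlc3, another subunit of the enzyme that starts sphingolipid synthesis (-0.54 (SE 0.20, adjusted p 0.0481)). Granular layer markers moved both ways, with 5 of 11 higher and 3 lower in mouse and 3 of 10 higher and 3 lower in spiny mouse, and their part in the ceramide gene values was not tested.

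Per length of transcript (RPKM, which is CPM divided by the exonic length in kilobases), Elovl4 and Scd1 were among the most abundant of the 40 in untreated skin of both species, and Soat1 in spiny mouse. Elovl4 had rank 2 of 40 in mouse (478 RPKM) and rank 1 in spiny mouse (991 RPKM). Scd1 had rank 1 in mouse with 563 RPKM and rank 4 in spiny mouse with 310.0 RPKM. Soat1 had rank 2 in spiny mouse with 334 RPKM and rank 26 in mouse with 17.6 RPKM. Fads2, Fads3 and Pnpla1 had ranks 39, 35 and 38 in untreated mouse skin, at 3.71, 8.21 and 5.93 RPKM. After treatment Scd3 went from rank 5 to rank 38 in mouse (75.4 to 6.29 RPKM), and Fads3 from rank 35 to rank 17 (43.7 RPKM after treatment). Levels were not tested between the species, whose genes were counted on separate annotations.

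Summed over a class, cholesterol synthesis genes took 1583, 950.2, 1466 and 1432 CPM in untreated and 2234, 1924, 1929 and 1757 CPM in treated mouse skin. In spiny mouse the sums were 2166, 2186, 2494 and 2301 CPM untreated and 1978, 1896, 1733 and 1599 CPM treated. The groups did not overlap in either species, and the sums moved up in mouse and down in spiny mouse. Fatty acid genes summed to 3745 to 5971 CPM in untreated and 3286 to 4948 in treated mouse skin, which overlap, and to 3869.5 to 5538 against 2653 to 3141 in spiny mouse, which do not.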

How the data were processed

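The deposited values are raw fragment counts per gene in 1 table per species. Per the file headers, featureCounts 2.0.3 counted read pairs with both ends mapped, on GRCm39 with Ensembl 108 for mouse and on the AcoCah2 assembly for spiny mouse. No option for strand, for fragments with several mapping places or for fragments over several genes appears in the command per the file headers. Trim Galore and HISAT2 are listed in the submitters' processing notes, and the labels' protocols name a stranded mRNA library. Mouse identifiers were given symbols from GENCODE M39 (56236 matched, 744 did not). Library names of the labels recur in the treated columns, while untreated columns have another code and were matched by species letter and number, each fitting 1 label. The column of untreated mouse replicate 2, the library that stood apart, has a further suffix whose meaning is not given in the sources used here.

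In each whole table, edgeR 4.0.16 (R 4.3.3) dropped low genes by filterByExpr, computed TMM factors and ran its quasi-likelihood test. P-values were adjusted over all genes tested (Benjamini-Hochberg), with calls under 0.05. As standard error stands the log2 fold change divided by the square root of F. The interaction used genes with 1 symbol in each table. The code was tested on simulated counts. Floors of 3 counts cover counting error only. Replicate pairs differed by a chi-square per degree of freedom of 11.35 to 165.8, so all 16 samples were kept. Alternatives were other scalings and filters, a robust fit, DESeq2 1.42.0, limma-voom (limma 3.58.1), the replicate number as a block and leaving out each library. Members and lists were chosen with earlier results of these data known. All 40 members could be named, and of each other list the called gene with the largest rise and the largest fall in each species at an average log2 CPM of at least 1. Marker genes named beside them were chosen after their values were seen.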

Additional observations from a re-analysis of the deposited data

Results flagged for a closer look

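In 8 of 160 groups of 4 samples, 1 sample lay far from the other 3, by the ratio of its gap to the group's range. Chance alone gives about 1 in 20 such groups, so this number is what chance gives. In untreated mouse skin, replicate 2 was low for Insig1 (66.1 CPM, ratio 0.846) and Ugcg (67.2 CPM, ratio 0.850), and replicate 4 was high for Fasn (1217 CPM, ratio 0.838). In untreated spiny mouse skin, replicate 3 was high for Fdft1 (158 CPM, ratio 0.863) and Msmo1 (271 CPM, ratio 0.830). In treated mouse skin, replicate 1 was high for Lss (123 CPM, ratio 0.851) and replicate 2 low for Fads1 (53.1 CPM, ratio 0.875). In treated spiny mouse skin, replicate 1 was high for Idi1 (105 CPM, ratio 0.833).

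The response to treatment differed between the species for 24 of 40 genes by the interaction term of edgeR's quasi-likelihood test, as spiny mouse minus mouse on the log2 scale. Among cholesterol genes the differences were -0.76 for Hmgcs1, -0.70 for Mvk, -0.89 for Pmvk, -1.22 for Mvd, -0.77 for Idi1, -1.21 for Fdft1, -1.13 for Sqle, -0.81 for Lss, -1.31 for Cyp51, -0.51 for Nsdhl and -0.86 for Sc5d. For the regulators they were -0.68 for Srebf2 and -1.31 for Insig1. Among the fatty acid genes they were -0.60 for Acly, -0.59 for Acaca, -0.82 for Fasn, -0.89 for Scd1, -1.04 for Fads1, -4.78 for Fads2 and -3.75 for Fads3. The other negative differences were -1.26 for Elovl3 and -1.81 for Pnpla1. The positive differences were 3.47 for Scd3 and 2.003 for Awat2, both from falls in mouse.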

How the results depend on the processing

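No called change of a member changed direction under any alternative run, and changes of sign among values that were not called were not counted. The count of members lower in mouse was 3, and 5 with upper-quartile factors or with library size alone, 7 with limma-voom and sample weights, and 2 to 6 with 1 library left out (6 without untreated mouse replicate 2). The other member counts with 1 library left out ran from 17 to 23 higher in mouse, from 3 to 5 higher and 14 to 22 lower in spiny mouse, and from 18 to 25 negative and 2 to 2 positive for the species difference. The summed level of the sterol regulators in mouse had a log2 ratio of 0.50, and 0.27 with library size alone. Scaling moved the whole mouse distribution: against TMM factors the median log2 fold change of all genes shifted by -0.24 under library size alone, -0.20 under upper-quartile factors and 0.15 with no filter. Higher genes made up 42.4% of mouse calls, and 28.8% under library size alone, 30.5% under upper-quartile factors and 48.4% under DESeq2 size factors. For the species difference the shifts were -0.10 under DESeq2 size factors, 0.16 under upper-quartile factors, 0.22 under library size alone and -0.13 with no filter. Positive differences made up 46.4% of calls, against 36.9%, 61.2%, 66% and 36.3% in that order. With the replicate number as a block, 23 of 23 member calls were kept in mouse, 20 of 22 in spiny mouse and 20 of 24 for the species difference, where 1 member was then positive instead of 2. Samples sharing a number did not deviate together (mean correlation 0.009 in mouse and -0.355 in spiny mouse), so the numbers were not taken as a pairing. For samples of unlike number the means were -0.003 and 0.119. In spiny mouse every same-number correlation was negative (-0.53 to -0.20), so these samples deviated in opposite directions. Whole skin and 4 samples a group limit what small changes can be called. Members that were not called and passed with 1 library left out, beside those named above, were Lss (0.25, adjusted p 0.0397 without untreated mouse replicate 2) and Acaca (0.58, adjusted p 0.0105 without untreated mouse replicate 4) in mouse. In spiny mouse they were Elovl7 (0.42, adjusted p 0.0104 without untreated spiny mouse replicate 3), Fads1 (-0.49, adjusted p 0.00712 without untreated spiny mouse replicate 3), Soat1 (-0.52, adjusted p 0.016 without untreated spiny mouse replicate 2), Elovl6 (-0.44, adjusted p 0.0417 without untreated spiny mouse replicate 2), Idi1 (-0.22, adjusted p 0.0249 without treated spiny mouse replicate 1), Sc5d (-0.30, adjusted p 0.0453 without treated spiny mouse replicate 1) and Nsdhl (0.23, adjusted p 0.0343 without treated spiny mouse replicate 4). For the species difference they were Fdps (-0.55, adjusted p 0.00865 without untreated mouse replicate 4), Srebf1 (-0.33, adjusted p 0.0314 without untreated mouse replicate 4), Elovl1 (-0.42, adjusted p 0.0383 without untreated mouse replicate 2), Soat1 (-0.68, adjusted p 0.0277 without untreated mouse replicate 2), Soat1 (-0.69, adjusted p 0.0209 without untreated spiny mouse replicate 2), Sptlc2 (-0.32, adjusted p 0.03 without untreated mouse replicate 3) and Sptlc2 (-0.33, adjusted p 0.0308 without treated mouse replicate 2).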
